A study of Homo sapiens with 42 samples.

Results

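Oncogene-induced senescence (OIS) was described in IMR90 ER:RAS cells that carried the control shRNA, by comparing 3 libraries from cells given 4OHT with 3 libraries from cells given DMSO. These 6 of the 42 libraries of the series were defined by their labels for cell line, shRNA and treatment. The comparison itself was chosen with earlier results of these data known. IMR90 is a strain of normal human lung fibroblasts. IMR90 ER:RAS received by retrovirus an oncogenic HRAS joined to the hormone-binding part of the oestrogen receptor, so that 4-hydroxytamoxifen (4OHT) switches the RAS protein on. Both groups carried this fusion and a vector whose control shRNA is expressed under doxycycline. The cells received 100 nM 4OHT or DMSO and were cultured for 7 days, then received 1 µg/ml doxycycline for 72 h, and RNA was taken at day 10. All 6 libraries therefore came from cells that had met doxycycline and expressed an shRNA, and no library held cells without the fusion given 4OHT, so the drug and the RAS fusion it activates cannot be told apart. The study describes its replicates as independent experiments, and the p-values below measure the spread between such samples.

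RAS passes its signal through the kinases RAF and MEK to ERK, which phosphorylates transcription factors of the ETS and AP-1 families and switches on its own inhibitors. When that signal persists in a normal fibroblast, the cell stops dividing, loses lamin B1 and builds a secretory programme that is driven by NF-kB and C/EBP factors and fed by interleukin 1. The questions taken up here are which families of genes moved beyond those markers, in which direction and by how much.

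The fusion gene was checked first. HRAS stood at 3514, 4183 and 3341 CPM (counts scaled to the library total after TMM adjustment) in DMSO replicates 1, 2 and 3 and at 5712, 3780 and 3296 CPM in OIS replicates 1, 2 and 3, an order of replicates kept throughout. ESR1, the oestrogen receptor gene, stood at 1768, 2252 and 1478 CPM with DMSO and at 2479, 2125 and 1892 CPM in OIS. The groups overlapped for both genes, and neither was called (edgeR's quasi-likelihood test with Benjamini-Hochberg adjustment, adjusted p = 0.56 for HRAS and 0.47 for ESR1). In parental IMR90 given DMSO, scaled together with all 42 libraries, HRAS averaged 35.9 ± 10.3 CPM and ESR1 0.026 ± 0.031 CPM (SD, n = 4), against 3937 ± 678 and 1967 ± 520 CPM in IMR90 ER:RAS with DMSO (SD, n = 3). Both ER:RAS groups thus carried the fusion message, and 4OHT, which acts on the protein, left its level within the spread of the replicates.

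The labelled state was checked on known senescence markers. IL1B, CXCL8, CSF2 and CDKN1A were higher and LMNB1 was lower in OIS, with no overlap between groups. CDKN1A, which encodes the p21 inhibitor of cyclin-dependent kinases, went from 740, 973 and 625 CPM to 6172, 4211 and 2616 CPM, and LMNB1 (lamin B1) from 13.6, 8.91 and 16.8 CPM to 1.67, 1.89 and 3.22 CPM. The summed CPM of the fibroblast marker list overlapped between groups, at 25640 to 33650 CPM with DMSO and 25440 to 34560 CPM in OIS. Its share of all counts, which takes no TMM factor, was lower in OIS, at 2.44 to 2.56% against 2.82 to 3.31%. Of its 14 genes 7 were called lower and 2 higher. In RNA from whole cultures, fewer cells of a kind and less of an RNA per cell cannot be told apart.

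The 6 libraries held 17409212 to 19271122 counts and 16139 to 17071 genes with a count, so that 3 counts correspond to 0.142 to 0.228 CPM. OIS replicate 1 stood apart, with the lowest scaling factor of edgeR's TMM method (0.726, the others reaching 1.10) and with high counts for GC-rich, short genes: its deviation from the mean of the libraries rose by 0.49 log2 units for every 10 percentage points of GC. DMSO replicate 2 had a like slope of 0.51, while OIS replicate 3 and DMSO replicate 3 sloped the other way, by -0.39 and -0.41. These slopes ran within both groups. The log2 fold change of OIS against DMSO therefore had only a weak rank correlation with GC content over genes (Spearman rho 0.06) and with transcript length (-0.10), which became 0.002 and 0.02 after the counts were corrected for both. Genes are not independent replicates, and these correlations are descriptions. Counts of calls after that correction are given beside many of the lists below. They are to be read against the shares of all genes called after it, 23.9% higher and 31.5% lower.

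Of 14297 genes tested, 2210 were called higher in OIS (15.5%) and 2888 lower (20.2%) at an adjusted p under 0.05. After correction for GC and length, 3423 (23.9%) were called higher and 4500 (31.5%) lower, and 2144 of the 2210 and 2807 of the 2888 kept their call. OIS and DMSO libraries did not overlap for 5629 of the 14297 genes tested. The naming of genes by list required such separation, so it is no finding about those genes. The changes were large. The log2 fold change reached 1 in size for 1713 of the genes called higher and 2345 of those called lower, and 5 for 224 and 197 of them. For 237 genes that rose, every DMSO library held 3 counts or fewer, and for 338 genes that fell, every OIS library did. Such genes pass a filter on low counts through 1 group and had to differ, so that a count over the tested members of a list describes those members and not the whole list. The median over all genes tested was -0.08, and DESeq2's size factors in place of TMM moved it by 0.124 to 0.04, so that small shifts of a list are read against that value.

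CPM give a share of the library and not an amount per cell. The largest gains in mean CPM belonged to TIMP1, a metalloproteinase inhibitor (1496 ± 196 to 12997 ± 6401 CPM, SD, n = 3), MMP1, the interstitial collagenase (52.4 ± 14.9 to 10529 ± 3191), and IL1B (0.836 ± 0.094 to 7183 ± 1262). VIM, GAPDH, CXCL8, MT2A, CTSB and CDKN1A were among those that followed. Among genes called lower, the largest losses belonged to COL1A2 and COL3A1, which encode chains of fibrillar collagens (5011 ± 570 to 524 ± 171 and 2333 ± 310 to 84.5 ± 18.3 CPM), followed by EEF1A1, COL1A1, CLU, TPT1, TGFBI, QSOX1, DCN and FBLN1. Of these, TPT1 lost its call without OIS replicate 1, DMSO replicate 1 or DMSO replicate 3 (adjusted p up to 0.089) and TGFBI without OIS replicate 2 or DMSO replicate 2 (up to 0.069). QSOX1 lost it without OIS replicate 2 or 3 or DMSO replicate 1 or 2 (up to 0.13), and VIM and EEF1A1 had an adjusted p of 0.052 and 0.097 when only the 6 libraries were fitted. For the whole list of chemokines the share of all counts went from 0.018 to 0.019% with DMSO to 0.48 to 1.27% in OIS. For interleukins and colony-stimulating factors it went from 0.029% to 0.95 to 1.05%, for metalloproteinases and their inhibitors from 0.73 to 0.90% to 2.37 to 2.98%, and for collagen chains down from 2.05 to 2.47% to 1.16 to 1.38%. None of these ranges overlapped.

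**Figure D1:**
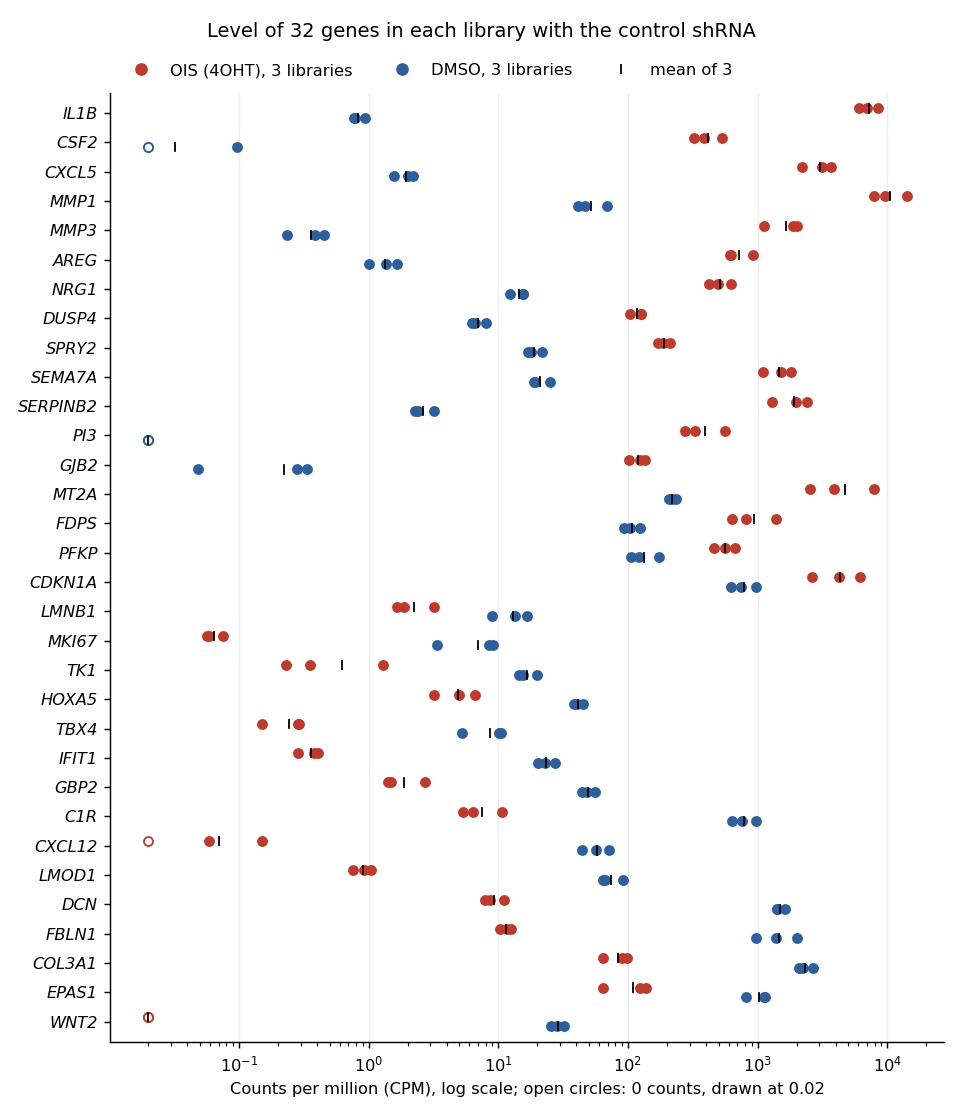
Level of 32 genes in each of the 6 libraries, in CPM on a log axis, with OIS libraries in red, DMSO libraries in blue and a black bar at the mean of 3; open circles mark libraries with 0 counts. In every gene shown the OIS libraries lie wholly above or wholly below the DMSO libraries, and WNT2 had no count in any OIS library. Naming of genes by list required such separation, which 5629 of the 14297 genes tested showed.

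**Figure D2:**
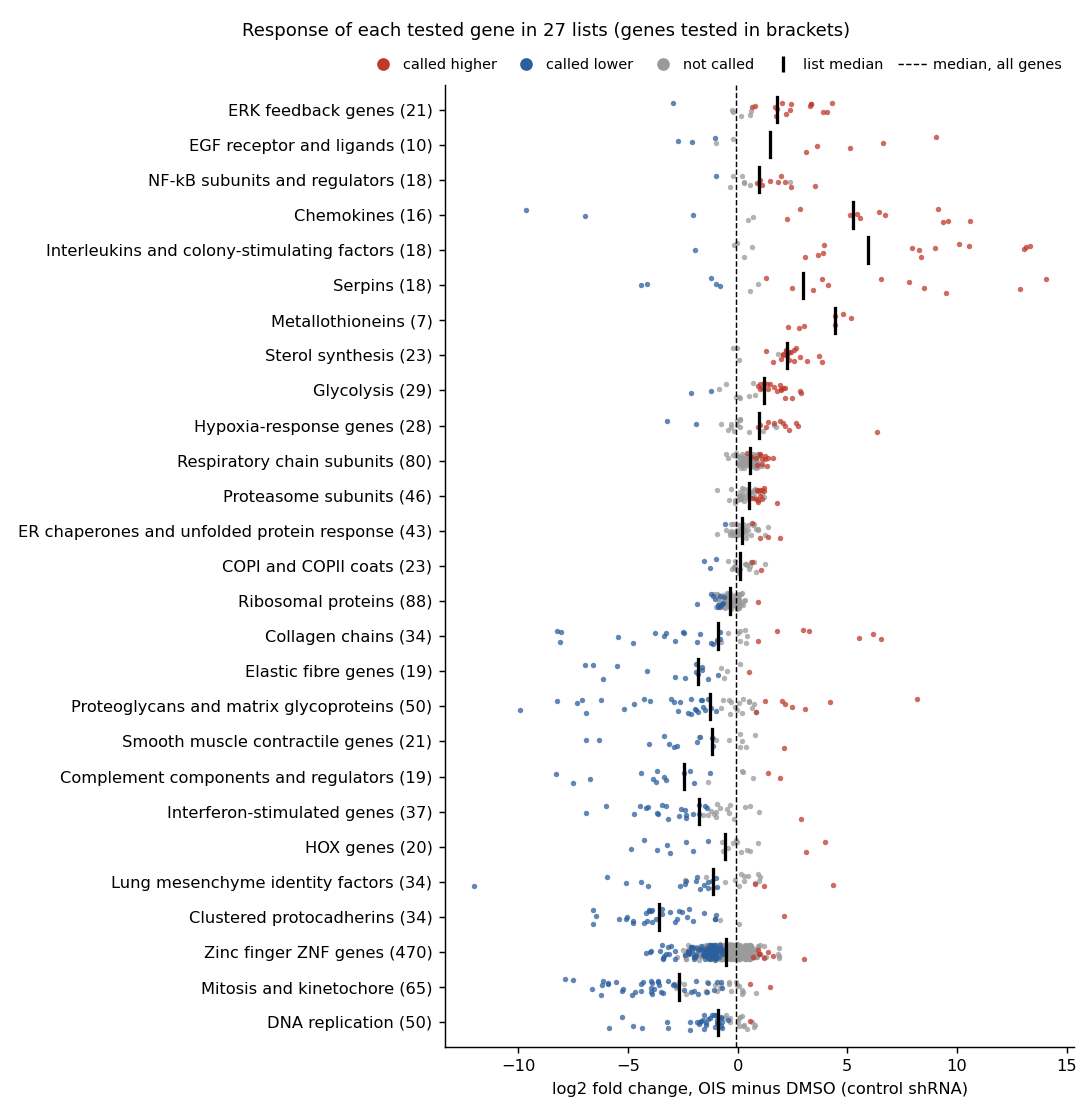
Log2 fold change of OIS against DMSO for each tested gene in 27 lists (number tested in brackets), red for genes called higher, blue for genes called lower and grey for the rest, with a black bar at the median of the list and a dashed line at the median of all genes (-0.08). Chemokines, interleukins, serpins and metallothioneins lie to the right, clustered protocadherins, mitotic genes and complement to the left, and ribosomal proteins and coat subunits stay near the dashed line.

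Genes that ERK switches on to restrain its own pathway were among the clearest risers, with 15 of 21 called higher and 1 lower (median log2 1.78, against -0.08 over all genes). The dual-specificity phosphatases DUSP4, DUSP5 and DUSP6, which remove phosphate from ERK and related kinases, all rose. DUSP4 stood at 6.33, 8.12 and 6.61 CPM with DMSO and at 125, 103 and 125 CPM in OIS (log2 4.07 ± 0.19, SE; edgeR adjusted p = 6.6e-10), so the groups lay far apart with a narrow spread. The Sprouty proteins, which block the path from receptors to RAS, divided. SPRY2 went from 17.1, 17.8 and 21.6 CPM to 188, 172 and 212 CPM and SPRY4 rose by 2.40 ± 0.19, whereas SPRY1 fell by 2.94 on the log2 scale, from 22.8, 22.9 and 28 CPM to 3.12, 2.46 and 3.98 CPM. The other inhibitors DUSP7, SPRED1 and SPRED2 were not called (log2 -0.27, 0.59 and 0.58). Of the ETS factors that report ERK activity, ETV4 rose by 2.19 ± 0.25, while ETV5 stayed at 88.9, 117 and 77.4 CPM against 117, 99.9 and 100 CPM. IER3, an early-response gene, and LIF, an interleukin 6 family cytokine, rose by 4.32 ± 0.26 and 3.91 ± 0.17. After GC and length correction 17 of the 21 were higher and the same SPRY1 was lower.

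The AP-1 family, dimers of FOS and JUN proteins, rose at the level of most subunits, with 10 of 16 tested members of the wider list called higher and 3 lower. FOSB (log2 3.64 ± 0.48), FOS (1.91 ± 0.30), FOSL1 (1.78 ± 0.18), JUNB (1.48 ± 0.26) and JUN (1.01 ± 0.20) were higher, FOSL2 fell by 1.17 and JDP2, a repressor of AP-1 sites, fell by 1.15, and JUND was not called. FOS itself remained scarce, at 2.51, 2.82 and 2.74 CPM against 10.6, 7.39 and 12.4 CPM. JDP2 and FOSL2 kept their call in every fit that left out a library, and JDP2 had an adjusted p of 0.059 when only the 6 libraries were fitted. Ligands of the EGF receptor family rose as well. AREG (amphiregulin) had 1.01, 1.35 and 1.65 CPM with DMSO and 621, 611 and 928 CPM in OIS, a log2 difference of 9.06 ± 0.37. NRG1 (neuregulin) went from 15.6, 12.3 and 15.6 CPM to 425, 492 and 621 CPM, EREG (epiregulin) from 1.74, 0.958 and 1.94 CPM to 45.9, 133 and 278 CPM, and HBEGF rose by 3.62 ± 0.36. The groups were separate for all 4 ligands, and EREG spread most among the OIS libraries. The receptors did not share that course. EGFR stood at 123, 90.7 and 87.7 CPM against 38.8, 67.8 and 153 CPM and was not called, and ERBB2 fell by 2.08 on the log2 scale. ERRFI1, an inhibitor of the EGF receptor kinase, rose by 3.12 ± 0.43, while LRIG3, a membrane protein of a family that lowers these receptors, fell by 2.72.

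Of the RGS proteins, which switch off heterotrimeric G proteins, 7 of 13 were called higher and 1 lower (median log2 1.16), and 8 and 5 after GC and length correction. In cells with either of 2 shRNAs against COPB2, a vesicle coat subunit, 3 were called lower with 4OHT. RGS5 had 4.35, 1.92 and 6.56 CPM with DMSO and 52.7, 134 and 171 CPM in OIS, and RGS20 and RGS4 rose by 3.25 ± 0.27 and 2.49 ± 0.40.

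The metalloproteinases, which cut matrix proteins, changed in both directions, with 13 of 42 list members called higher and 12 lower (median log2 -0.05). The risers included secreted collagenases, stromelysins and matrilysin. MMP3 (stromelysin 1) stood at 0.387, 0.451 and 0.236 CPM with DMSO and at 2006, 1113 and 1887 CPM in OIS (log2 12.17 ± 0.49, edgeR adjusted p = 2.7e-10). MMP10 (stromelysin 2) went from 0.0483, 0.113 and 0.378 CPM to 239, 234 and 417 CPM. MMP7 (matrilysin) had no count in any DMSO library and 39.1, 27.9 and 25.7 CPM in OIS, which is at least 7.51 on the log2 scale above the level that 3 counts per DMSO library would give. MMP14, a membrane-bound activator of other metalloproteinases, rose by 1.39 ± 0.32. MMP2 (gelatinase A) fell by 1.21, ADAMTS8 by 5.25 and ADAMTS15, a versican-cutting protease, by 4.78. Of the inhibitors, TIMP1 rose by 3.12 ± 0.36, TIMP3 fell by 1.53 and RECK, a membrane-anchored inhibitor, fell by 2.10.

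The promoters of the risers MMP7 and MMP10 are shown because each holds an AP-1 motif at the same distance from the start of the gene. The stretches below come from RefSeq (GRCh38.p14) and run 5′ to 3′ toward the gene, and capitals mark matches to TGANTCA, where N is any base; both lie on the minus strand of chromosome 11, at chr11:102530778-102530837 for MMP7 and chr11:102780659-102780718 for MMP10.
MMP7: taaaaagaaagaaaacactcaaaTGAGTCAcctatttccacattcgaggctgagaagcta
MMP10: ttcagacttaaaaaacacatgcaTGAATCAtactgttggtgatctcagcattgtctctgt
The match began 67 bases before the start in both. Over the 250 bases before the start, 3 of 24 promoters of tested metalloproteinases and inhibitors held the motif, against 6.55% of all 27195 promoters and 4.19% of those of tested genes. A match is a run of letters and not an observed site.

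Subunits and regulators of NF-kB, the transcription factor behind much of the secretory programme, rose in 9 of 18 cases and fell in 1 (median log2 0.99). The message for the main activating subunit RELA stayed at 110, 181 and 81.1 CPM against 166, 172 and 112 CPM, and NFKB1 was not called. The subunits of the slower arm of the pathway, RELB and NFKB2, rose by 1.46 ± 0.24 and 1.13 ± 0.29, and NFKB2 had an adjusted p of 0.062 when only the 6 libraries were fitted. The remaining risers were largely inhibitors that NF-kB induces. TNFAIP3 (A20) went from 14.7, 11.3 and 13 CPM to 35.3, 44.8 and 72.4 CPM, TNIP1, its partner, from 181, 266 and 154 CPM to 1536, 1000 and 665 CPM, and the nuclear regulator NFKBIZ rose by 2.15 ± 0.32. NFKBIA, the main inhibitor, rose by 0.89 ± 0.28, and that call was lost without OIS replicate 1, DMSO replicate 1 or DMSO replicate 3 (adjusted p up to 0.14).

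Of 16 tested chemokines, 11 were called higher and 3 lower (median log2 5.28, or 4.56 with genes at the floor of 3 counts set to their bound). The neutrophil attractants that sit side by side on chromosome 4 rose together. CXCL5 stood at 2.03, 1.58 and 2.22 CPM with DMSO and at 2186, 3158 and 3692 CPM in OIS. CXCL1 went from 8.99, 7.16 and 8.69 CPM to 1256, 817 and 577 CPM, and CXCL3 from 0.531, 0.395 and 0.708 CPM to 367, 319 and 239 CPM. CXCL8 (interleukin 8) went from 7.59, 1.52 and 14.6 CPM to 2323, 8159 and 8154 CPM, and was lowest in OIS replicate 1, the library in which CXCL1 was highest. CXCL2 and CXCL6 rose by 6.46 ± 0.38 and 5.14 ± 0.39. CCL20, which attracts T helper 17 cells, held 3 counts or fewer in every DMSO library and 33.2, 38 and 42.3 CPM in OIS, at least 7.81 higher on the log2 scale. CCL2, a monocyte attractant, was not called, at 83.7, 83.9 and 88.1 CPM against 210, 109 and 40.5 CPM, and its OIS libraries fell on both sides of the DMSO libraries. CXCL12, which holds blood-forming cells in the marrow, was lost: it stood at 57.2, 71.7 and 44 CPM with DMSO and at 0.152, 0 and 0.0585 CPM in OIS, a log2 fold change of -7.98 or below.

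The promoters of 4 of the risers are shown because each carries the NF-kB motif, CXCL8 at another distance from the start than the other 3. Capitals mark matches to GGNNTTNCC on either strand; the RefSeq stretches (GRCh38.p14) span the bases from 110 to 21 before each start, at chr4:73869283-73869372 (plus strand) for CXCL1, chr4:74099216-74099305 (minus) for CXCL2, chr4:74038710-74038799 (minus) for CXCL3 and chr4:73740459-73740548 (plus) for CXCL8.
CXCL1: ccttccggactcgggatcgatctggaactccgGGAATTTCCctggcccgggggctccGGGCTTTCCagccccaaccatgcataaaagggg
CXCL2: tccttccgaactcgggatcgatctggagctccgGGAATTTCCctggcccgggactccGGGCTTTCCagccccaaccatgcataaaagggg
CXCL3: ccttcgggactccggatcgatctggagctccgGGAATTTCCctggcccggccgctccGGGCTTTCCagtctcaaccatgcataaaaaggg
CXCL8: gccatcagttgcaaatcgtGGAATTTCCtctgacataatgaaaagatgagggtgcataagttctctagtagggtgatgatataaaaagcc
CXCL1, CXCL2 and CXCL3 hold 2 matches each and CXCL8 holds 1, and the first match has the same 9 letters in all 4. Among the 12 promoters of tested chemokines, 9 held the motif, against 14.9% of all promoters and 16.9% of those of tested genes.

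Interleukins and colony-stimulating factors rose in 13 of 18 tested cases and fell in 1, against 15.5% and 20.2% of all genes. Their median log2 was 5.93, or 3.92 with genes at the floor of 3 counts set to their bound. The split describes the tested members and not the whole list. Both agonists of the interleukin 1 receptor rose with their antagonist. IL1A went from 0.0483, 0 and 0.378 CPM to 93.6, 283 and 322 CPM. IL1B went from 0.773, 0.789 and 0.944 CPM to 8522, 7013 and 6014 CPM, and IL1RN, the receptor antagonist, from no count in any DMSO library to 2.81, 3.44 and 4.27 CPM, at least 4.37 higher on the log2 scale. All 3 were separate between groups, and the antagonist remained far scarcer than IL1B. IL11, a cytokine of the interleukin 6 family known from fibrosis, had 6.57, 4.68 and 7.88 CPM against 1413, 1392 and 1883 CPM in OIS, while IL6 had 7.49, 6.14 and 11.1 CPM against 190, 114 and 74 CPM. CSF2 and CSF3, growth factors for granulocytes and macrophages, were at most 3 counts per DMSO library and reached 527, 386 and 322 CPM and 529, 319 and 236 CPM, at least 11.25 and 11.06 higher. CSF1, the macrophage factor that fibroblasts make constitutively, fell by 1.95 on the log2 scale. Around these, PTGS2 (cyclooxygenase 2) rose by 7.95 ± 0.74 while PTGIS, which makes prostacyclin, fell by 7.95, TNFSF15 went from 4.11, 1.97 and 5.9 CPM to 494, 1150 and 1989 CPM, and SEMA7A, a membrane-bound semaphorin, went from 19.4, 24.9 and 19 CPM to 1805, 1095 and 1510 CPM.

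Interferon-stimulated genes, the antiviral set that type I interferon switches on through a complex that holds STAT2 and IRF9, fell in 21 of 37 cases and rose in 1 (median log2 -1.74), and in 25 and 2 cases after GC and length correction. IFIT1, which binds foreign RNA ends, stood at 22.8, 27.2 and 20.4 CPM with DMSO and at 0.38, 0.286 and 0.41 CPM in OIS (log2 -6.01 ± 0.33, edgeR adjusted p = 4.3e-09). IFITM1, a block to virus entry, went from 352, 535 and 307 CPM to 24.2, 22.1 and 20 CPM, GBP2, a guanylate-binding protein, from 44, 48 and 55.8 CPM to 2.74, 1.49 and 1.41 CPM, and BST2 (tetherin) from 3.96, 6.09 and 2.69 CPM to 0.912, 0.229 and 0.234 CPM. In that complex, STAT2 fell by 1.41 and IRF9 fell by 1.504. The list was not uniform. ISG15, a ubiquitin-like modifier, was not called and spread widely in OIS (229, 76.3 and 44.2 CPM), IRF1 was not called, and CMPK2, a nucleotide kinase, rose by 2.90 ± 0.62. CXCL10, an interferon-induced chemokine outside this list, rose by 5.43 ± 0.86. Antigen presentation, which interferon also governs, was mostly not called: of 22 class I genes 3 were called higher, among them the peptide transporter TAP1 (log2 1.24 ± 0.27), and 2 lower, and after correction 3 were higher and 7 lower.

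IFIT1 and BST2 promoters are shown because each holds 2 matches to the interferon motif. Capitals mark matches to GAAA, any 2 bases and GAAA again, on either strand, in RefSeq stretches (GRCh38.p14) at chr10:89392493-89392552 (plus strand) and chr19:17405721-17405780 (minus strand).
IFIT1: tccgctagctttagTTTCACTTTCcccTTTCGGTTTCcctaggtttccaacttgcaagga
BST2: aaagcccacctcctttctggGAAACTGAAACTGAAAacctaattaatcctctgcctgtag
In BST2 the matches overlap, and in IFIT1 they lie on the opposite strand. The motif was found in 17 of the 28 promoters of tested interferon-stimulated genes, against 3.07% of all promoters and 2.35% of those of tested genes.

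Complement, the serum cascade that fibroblasts also supply, fell in 13 of 19 cases and rose in 2 (median log2 -2.43). The starting proteases C1R and C1S went from 760, 970 and 636 CPM to 10.6, 6.42 and 5.33 CPM and from 860, 919 and 798 CPM to 76.4, 46 and 55.6 CPM. SERPING1, which inhibits both, fell alongside, by 4.42 on the log2 scale, as did factor B (CFB, log2 -3.67) and C7, a part of the membrane attack complex, which was down to 3 counts or fewer in every OIS library (log2 fold change of -5.28 or below). C3, the central component, was not called, at 39.2, 37.9 and 18.8 CPM against 54.5, 46.8 and 53.9 CPM. The members that rose, CD55 (1.92 ± 0.42) and CD59 (1.37 ± 0.17), are membrane proteins that shield a cell from complement.

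In the lists of extracellular matrix genes below, more messages were called lower than higher. Of 34 tested collagen chains 18 fell and 7 rose (median log2 -0.88). COL3A1 went from 2683, 2223 and 2094 CPM to 99, 63.9 and 90.5 CPM and COL1A2 from 5276, 5400 and 4356 CPM to 708, 368 and 495 CPM, while COL1A1, which encodes the partner chain of COL1A2, fell by only 1.20 ± 0.23. COL14A1 and COL15A1, which sit on fibril surfaces and at basement membranes, fell to under 1 CPM (log2 -8.12 and -8.22). The chains of collagen VI parted: COL6A2 was called higher (log2 0.94 ± 0.26), COL6A1 stayed at 2900, 3996 and 2575 CPM against 4026, 3139 and 3188 CPM, and COL6A3 was not called. The call of COL6A2 had an adjusted p of 0.085 when only the 6 libraries were fitted. Among the risers, COL7A1, which makes anchoring fibrils of skin, went from 6.33, 4.4 and 7.41 CPM to 57.1, 34.1 and 54.4 CPM, and COL10A1 and COL22A1 rose by 5.54 ± 0.73 and 6.53 ± 0.47 from under 0.5 CPM. Enzymes that finish collagen also divided, with 5 of 25 called higher and 7 lower (20% and 28%, against 15.5% and 20.2% of all genes). After correction 7 were higher and 12 lower, where 23.9% and 31.5% of all genes were. P4HA2, a prolyl hydroxylase, rose by 2.35 ± 0.28 and PCOLCE, which helps to cut procollagen, fell by 3.35.

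Elastic fibres are built by elastin on a scaffold of fibrillins and fibulins. In this list 14 of 19 genes fell and 1 rose (median log2 -1.82), a share of lower calls of 73.7% against 20.2% over all genes. FBLN1 went from 1382, 2001 and 972 CPM to 12.6, 11.7 and 10.2 CPM, MFAP4 from 939, 1383 and 557 CPM to 23.5, 21.1 and 18.2 CPM, and EFEMP1 (fibulin 3) from 105, 88.6 and 98.6 CPM to 0.684, 0.516 and 1.81 CPM. ELN fell from 4.69, 5.75 and 4.86 CPM to 0.228, 0 and 0 CPM, a log2 fold change of -4.48 or below. FBN1 and FBLN5 fell (log2 -1.88 and -2.38). The riser LTBP2 (log2 0.52 ± 0.18) lost its call without OIS replicate 3, DMSO replicate 1 or DMSO replicate 3 (adjusted p up to 0.13). Of 50 proteoglycans and matrix glycoproteins 27 fell and 8 rose. Small leucine-rich proteoglycans led the losses: DCN (decorin) went from 1413, 1626 and 1404 CPM to 11.2, 7.96 and 8.61 CPM, LUM (lumican) from 89.2, 30.5 and 138 CPM to 3.34, 5.04 and 7.84 CPM, and PODN (podocan) from 91.2, 117 and 60.5 CPM to 3 counts or fewer, a log2 fold change of -8.62 or below. BGN (biglycan), of the same family, stayed at 301, 482 and 209 CPM against 352, 333 and 297 CPM. LAMB3, a chain of the laminin of epithelial basement membranes, rose by 2.50 ± 0.38, while LAMA2 and LAMA4, the mesenchymal chains, fell (log2 -2.90 and -1.47).

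Contractile genes of smooth muscle, which mark the myofibroblast state, fell in 11 of 21 cases and rose in 1 (median log2 -1.19). TAGLN (transgelin) went from 994, 1396 and 1348 CPM to 236, 121 and 69.2 CPM, LMOD1 (leiomodin) from 66.7, 91.2 and 64.8 CPM to 0.76, 0.917 and 1.05 CPM and ACTA2 (smooth muscle actin) from 409, 569 and 473 CPM to 273, 221 and 144 CPM. The groups did not overlap for any of these. SMTN (smoothelin) rose by 2.13 ± 0.33, and MYOCD, the coactivator of the programme, was not called. The TGF-beta and BMP list was mixed, with 8 of 49 called higher and 18 lower (16.3% and 36.7%, against 15.5% and 20.2% of all genes). After correction 13 were higher and 27 lower, where 23.9% and 31.5% of all genes were. INHBA (activin A) went from 18, 6.43 and 28.4 CPM to 952, 911 and 1947 CPM and BMP2 from 5.7, 3.5 and 4.77 CPM to 295, 308 and 491 CPM. BMP4 went from 127, 133 and 127 CPM to 8.51, 5.39 and 4.33 CPM and GDF5 fell by 6.58. On the cell surface, ICAM1 rose by 2.98 ± 0.23 and VCAM1 fell by 5.42, although both are adhesion molecules for leucocytes.

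Cholesterol synthesis rose almost from end to end. Of 23 tested genes of the sterol list 19 were called higher (median log2 2.26), and the list's share of counts went from 0.107 to 0.119% to 0.40 to 0.50%. FDPS (farnesyl diphosphate synthase) stood at 92.5, 125 and 103 CPM with DMSO and at 1380, 820 and 630 CPM in OIS (log2 3.14 ± 0.30, edgeR adjusted p = 1.2e-06). MSMO1, a demethylating oxidase late in the pathway, went from 23.5, 23.7 and 41.6 CPM to 306, 364 and 627 CPM. INSIG1, the feedback regulator, rose by 3.72 ± 0.51 and SREBF2, which encodes the sterol-sensing transcription factor of the pathway, by 1.30 ± 0.20. PMVK, LSS and TM7SF2 lay at a log2 change of -0.03, -0.23 and 0.04. DHCR7 had the narrowest spread, at 216, 209 and 207 CPM in OIS. Genes of fatty acid synthesis and lipid storage rose in 17 of 33 cases and fell in 5. FASN (fatty acid synthase) went from 60.3, 87.1 and 46 CPM to 347, 386 and 360 CPM, SCD, which makes oleate, rose by 1.85 ± 0.23, ELOVL2, an elongase of long polyunsaturated chains, was down to 3 counts or fewer (log2 -6.14 or below), and PPARG, the adipocyte receptor, fell by 2.56.

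Glycolysis rose in 19 of 29 cases and fell in 2 (median log2 1.21), and after GC and length correction in 21 and 3. HK2, the inducible hexokinase, went from 13.1, 9.81 and 14.5 CPM to 63.4, 83.4 and 121 CPM, PFKP, the platelet phosphofructokinase, from 121, 174 and 106 CPM to 669, 558 and 458 CPM, PGK1 from 361, 501 and 330 CPM to 2227, 1413 and 902 CPM and LDHA from 314, 358 and 415 CPM to 1455, 1065 and 905 CPM. Groups were separate for all 4. OIS replicate 1, the library with many GC-rich reads, was the highest for PFKP, PGK1 and LDHA and the lowest for HK2. At steps served by several isozymes the members differed: PFKL and PFKM were not called beside PFKP, and ENO2 rose by 2.87 ± 0.38 while PKM, which ends the pathway, was not called (log2 0.71). ENO1 rose by 1.21 ± 0.39 and lost its call without OIS replicate 1 or 2 or DMSO replicate 1 or 3 (adjusted p up to 0.14). SLC16A3, which exports lactate, rose by 2.14 ± 0.31, and the glucose carrier SLC2A1 stayed at 80.8, 102 and 74.9 CPM against 130, 82 and 66.6 CPM. ALDOA had few counts for an abundant enzyme (8.02, 9.58 and 7.22 CPM with DMSO), so that its reads may have been shared with an overlapping gene and its rise of 2.48 ± 0.44 is uncertain.

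**Figure D3:**
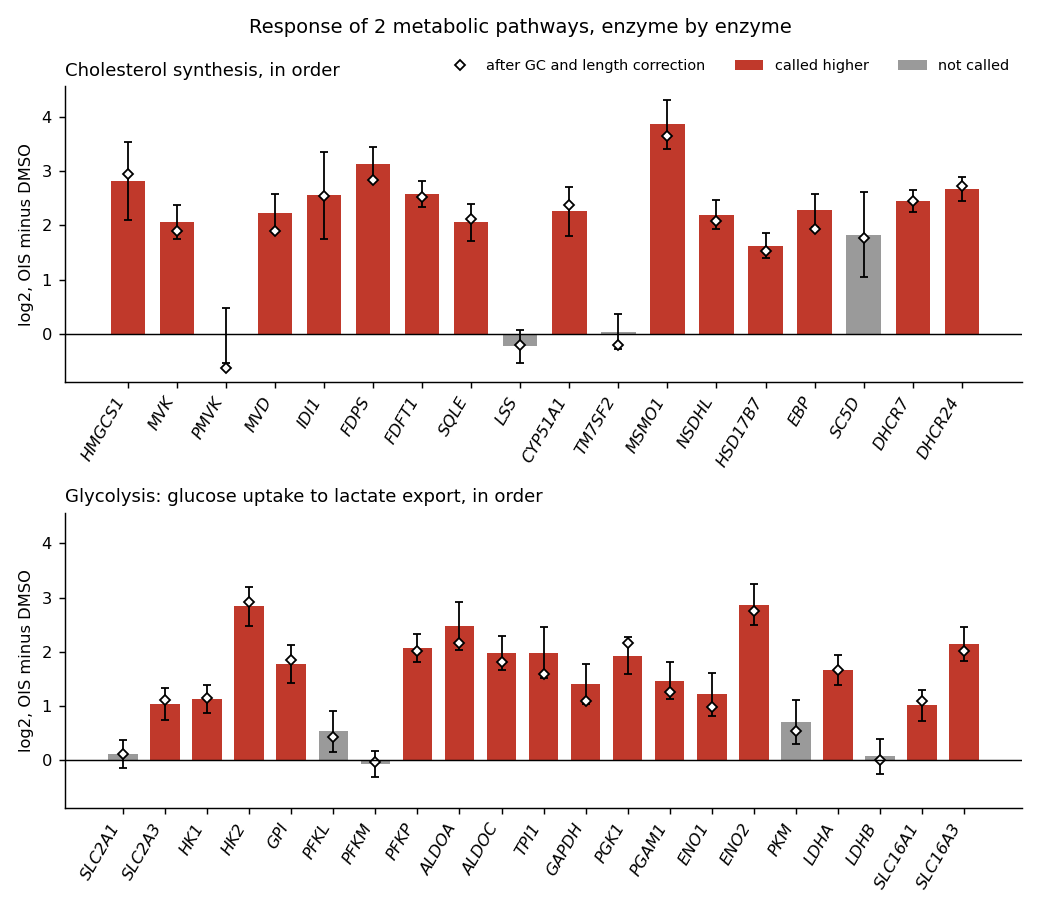
Log2 fold change of OIS against DMSO for 18 enzymes of cholesterol synthesis (upper panel) and for enzymes of glycolysis with glucose and lactate carriers (lower panel), in pathway order, with bars in red where called higher and grey where not, error bars of 1 SE and open diamonds for the value after GC and length correction. Most bars of both panels are red and the diamonds sit near the bar ends in most cases, with LSS and TM7SF2 near 0 above, PMVK at -0.03 with its diamond lower, and SLC2A1, PFKM and LDHB near 0 below.

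Hypoxia-response genes, many of them glycolytic, rose in 12 of 28 cases and fell in 2. VEGFA went from 31.5, 31.9 and 38.5 CPM to 219, 196 and 239 CPM and STC1 (stanniocalcin) from 43.6, 41 and 47.3 CPM to 2452, 3156 and 5103 CPM. Of the oxygen-regulated factors themselves, EPAS1 (HIF-2 alpha) fell from 1128, 1150 and 807 CPM to 64.7, 123 and 139 CPM, and HIF1A was not called (178, 84.1 and 223 CPM against 177, 579 and 896 CPM). ADM, often used as a hypoxia marker, fell by 1.91 on the log2 scale.

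All 7 tested metallothioneins, small proteins that bind zinc and copper, rose (median log2 4.43), and their share of counts went from 0.027 to 0.028% to 0.27 to 0.61%. MT2A went from 218, 235 and 209 CPM to 7841, 3869 and 2557 CPM and MT1X from 5.65, 5.07 and 4.25 CPM to 191, 124 and 105 CPM. OIS replicate 1 held the highest value of both, and without that library the calls remained, the adjusted p over all fits that left out a library reaching 4.3e-05 for MT2A and 8.6e-07 for MT1X. After GC and length correction the changes were 3.86 and 4.41. The genes are near-identical copies, and how reads were divided among them cannot be seen here. SLC40A1 and HEPH, which export iron from cells, fell (log2 -4.49 and -3.66).

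Promoter stretches of MT2A and MT1X are shown because they hold the metal-response motif at several places. Capitals mark matches to TGCACNCG or TGCGCNCG on either strand, from RefSeq (GRCh38.p14, plus strand) at chr16:56608404-56608543 for MT2A and chr16:56682310-56682429 for MT1X.
MT2A: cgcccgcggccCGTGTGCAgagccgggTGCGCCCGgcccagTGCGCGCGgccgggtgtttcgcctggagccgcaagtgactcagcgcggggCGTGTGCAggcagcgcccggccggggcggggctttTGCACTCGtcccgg
MT1X: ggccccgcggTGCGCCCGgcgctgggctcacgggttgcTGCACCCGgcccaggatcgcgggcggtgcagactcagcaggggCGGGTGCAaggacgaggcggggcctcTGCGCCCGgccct
MT2A holds 5 matches and MT1X holds 4, and no other tested metallothionein had a promoter in the table. At least 1 match was found in 7.77% of all promoters and 12.02% of those of tested genes.

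Large complexes of the mitochondrion and of protein turnover moved by small amounts, and their calls were all toward higher levels before correction. Respiratory chain subunits were called higher in 13 of 80 cases (median log2 0.58), mitochondrial ribosomal proteins in 19 of 77 (0.42) and proteasome subunits in 13 of 46 (0.50). These are 16.25, 24.68 and 28.26%, against 15.5% of all genes. The remaining members were not called, where 20.2% of all genes were called lower. These counts depended on GC content and length: after the correction there were 25 higher and 3 lower for the respiratory chain, 29 and 12 for the mitochondrial ribosome and 19 and 3 for the proteasome. Over all genes 23.9% were then higher and 31.5% lower, so each complex had more higher and fewer lower calls than that. PSMD2, a subunit of the regulatory particle of the proteasome, went from 410, 594 and 347 CPM to 2097, 1484 and 1102 CPM. Cytosolic ribosomal proteins had a median log2 of -0.36. They were called lower in 12 of 88 cases (13.6%, against 20.2% of all genes) and higher in 1, and lower in only 4 with DESeq2 size factors. After correction 47 were lower, where 31.5% of all genes were. Their share of counts went from 7.67 to 8.08% with DMSO to 6.40, 4.84 and 3.79% in OIS replicates 1, 2 and 3. RPL22 went from 115, 61 and 163 CPM to 42, 44.8 and 57.5 CPM (log2 -1.23 ± 0.34), a call lost without DMSO replicate 3 (adjusted p = 0.067). The single riser, RPL17, had 3.87, 2.93 and 5.48 CPM with DMSO and 11.5, 6.3 and 5.97 CPM in OIS, few for a ribosomal protein. It may share reads with an overlapping gene, and it lost its call without OIS replicate 1, DMSO replicate 1 or DMSO replicate 2 (adjusted p up to 0.21).

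Genes that mark where in the body a fibroblast comes from were lost in part. HOX genes hold positional identity, and 8 of 20 tested fell while 2 rose (median log2 -0.57). HOXA5, the member most tied to lung, went from 40.7, 38.3 and 45.3 CPM to 6.61, 4.99 and 3.22 CPM (log2 -3.07 ± 0.24, edgeR adjusted p = 1.3e-07). Neighbours HOXA2, HOXA3, HOXA4 and HOXA7 fell (log2 -4.84, -3.22, -1.36 and -3.66), HOXA6 was at log2 -2.96 or below, and HOXB3 and HOXB4 fell too (log2 -2.38 and -2.02). HOXB3 had 90.5, 109 and 81.3 CPM with DMSO and 20.7, 18.7 and 14.7 CPM in OIS. The 2 risers, HOXA11 and HOXB9, are genes of the rear of the body and rose from at most 0.189 CPM to 1.22, 0.688 and 0.878 CPM and 1.9, 1.89 and 1.29 CPM, so that both stayed scarce. None of HOXB5 to HOXB8 or of the HOXC genes tested was called.

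**Figure D4:**
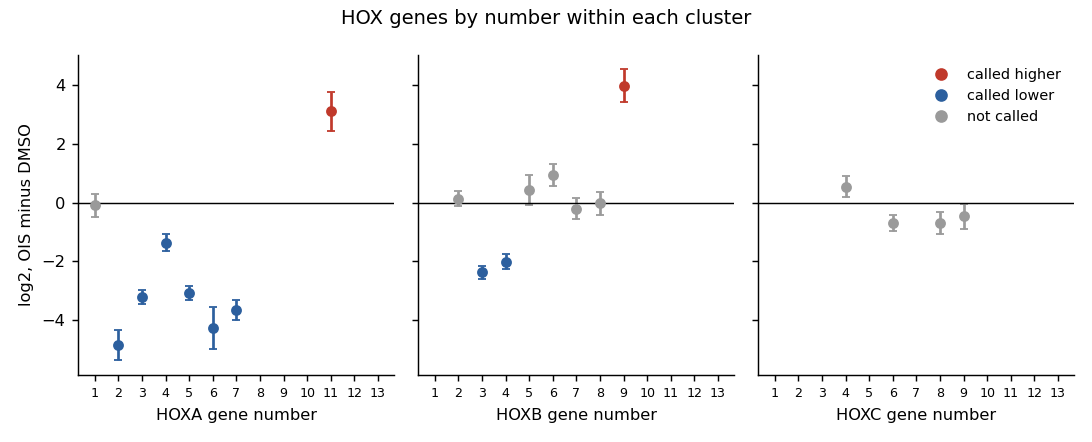
Log2 fold change of OIS against DMSO (points, with bars of 1 SE) for the 20 tested HOX genes, in 3 panels by cluster and ordered by gene number within the cluster, blue for genes called lower, red for higher and grey for not called. The blue points are HOXA2 to HOXA7 with HOXB3 and HOXB4, the red points are HOXA11 and HOXB9, and every HOXC gene lies near 0 in grey.

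The list of lung mesenchyme factors fell in 17 of 34 cases and rose in 3 (median log2 -1.14). TBX4 went from 10.1, 10.5 and 5.29 CPM to 0.152, 0.286 and 0.293 CPM and TBX5 from 32.4, 36.7 and 23.4 CPM to 6.69, 9 and 12.6 CPM; these T-box factors specify the lung bud mesenchyme. WNT2, the ligand with which that tissue signals to the lung epithelium, stood at 25.5, 32 and 28.6 CPM with DMSO and had no count in any OIS library, a log2 fold change of -6.98 or below. TCF21, a fibroblast lineage factor, fell by 2.62. After correction 6 of the list were higher and 20 lower. FOXF1, the main factor of lung mesenchyme, was not part of this loss, at 229, 250 and 211 CPM against 290, 201 and 226 CPM. In the wider WNT list 10 of 34 genes rose and 11 fell (29.41% and 32.35%, against 15.5% and 20.2% of all genes). WNT7B went from 0.58, 0.62 and 0.567 CPM to 68.5, 57.5 and 62.8 CPM and the receptor FZD8 rose by 4.78 ± 0.30, while FRZB, a secreted antagonist, fell by 6.04. Enzymes of alcohol and retinoid metabolism fell in 11 of 24 cases, with FMO2 (36.2, 22.8 and 56 CPM with DMSO) and ADH1B (47.8, 36.5 and 53.1 CPM) at 1 count or none in each OIS library. CYP26B1, which degrades retinoic acid, rose from under 0.5 CPM to 25.8, 18.7 and 22.8 CPM.

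Clustered protocadherins, cell-surface proteins chosen in combinations from 3 tandem arrays, fell in 31 of 34 tested cases and rose in 1 (median log2 -3.58, or -2.80 with genes at the floor set to their bound). PCDHGB2 went from 6.43, 12.1 and 3.87 CPM to 0.304, 0.516 and 0.293 CPM and PCDHGA6 from 7.25, 11.4 and 4.63 CPM to 0.304, 0.573 and 0.585 CPM. PCDHGC3, the most abundant, went from 107, 188 and 58.1 CPM to 29.6, 37.9 and 52.5 CPM, and PCDHGA12 was not called. DMSO replicate 2, a GC-rich library, was the highest in each of these 4. Without both GC-rich libraries PCDHGC3 had an adjusted p of 0.085. After GC and length correction 32 members were lower and 1 higher (median log2 -3.44). Members of the alpha array, and those of the gamma array, share their last exons, so that how the reads were divided among them is uncertain. Zinc finger genes named ZNF, mostly repressors with KRAB domains, were called lower in 87 of 470 cases and higher in 8 (18.5% lower, against 20.2% of all genes), and in 180 and 28 after correction. Antisense transcripts were called lower in 108 of 337 cases (32.05%) and higher in 37 (10.98%), against 20.2% and 15.5% of all genes. Whether each was counted apart from its sense partner rests on the strand setting used by the authors.

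Genes better known from skin than from fibroblasts were among the risers. Of 59 members of the epidermal barrier list only 16 had enough counts to test, and 11 of these rose and 2 fell. Members with no count in DMSO, PI3 and the 2 LCE genes named here among them, were tested only for their counts with 4OHT, so this split is no measure of the list. PI3 (elafin), an elastase inhibitor of inflamed skin, had no count in any DMSO library and 562, 332 and 275 CPM in OIS, at least 11.17 higher on the log2 scale. LCE1F and LCE3D, late cornified envelope proteins, were likewise without a count with DMSO and reached 101, 56.2 and 51.6 CPM and 30.5, 12.1 and 7.03 CPM. Of 18 serpins, the family of protease inhibitors, 11 rose and 5 fell. SERPINB2, an inhibitor of urokinase, went from 2.42, 3.21 and 2.27 CPM to 1302, 1982 and 2413 CPM, SERPINB4, a squamous cell antigen, from no count to 18.3, 55.8 and 78.7 CPM, and SERPINA9, known from germinal centre B cells, from no count to 128, 124 and 95.4 CPM. GJB2 (connexin 26) went from 0.0483, 0.338 and 0.283 CPM to 123, 101 and 134 CPM. Epithelial markers did not rise with them: their summed level was 151 to 206 CPM with DMSO and 58.1 to 202 CPM in OIS, KRT5, SFTPC and SCGB1A1 had no count in any of the 6 libraries, KRT19 fell by 2.75, and CLDN4 alone of the 7 tested was called higher.

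Of the 8 endothelial markers tested, 7 were called higher and TEK was called lower (87.5% and 12.5%, against 15.5% and 20.2% of all genes). Of the 9 markers listed, 3 held 3 counts or fewer in every DMSO library, CDH5 among them. Where tested, such markers passed the filter on low counts through other libraries and had to differ. The split therefore describes the tested markers and is no measure of the list. CLDN5, the endothelial claudin, went from 0.242, 0.226 and 0.283 CPM to 63.1, 40.4 and 33.4 CPM and TIE1, a receptor of endothelial cells, from 0.387, 0.62 and 0.189 CPM to 32.8, 23.4 and 33.8 CPM. PECAM1 and CDH5, defining genes of that cell type, reached only 2.13, 2.52 and 2.4 CPM and 1.44, 1.49 and 2.87 CPM, and CDH5 had no count with DMSO. The summed level of the 9 markers was 24.97 to 27.51 CPM with DMSO and 100.6 to 169.6 CPM in OIS. SOX17, an endothelial transcription factor outside that list, held at most 1 count per DMSO library and 16.5, 12.2 and 16.6 CPM in OIS. Leucocyte markers, the genes of other cells that a lung culture could hold, summed to 16.8 to 35.8 CPM with DMSO and 98.0 to 103 CPM in OIS, and 7 of the 13 markers, CD3E, MS4A1, ITGAM and TYROBP among them, had no count in any OIS library. CD68, a macrophage marker, made up nearly all of both sums, at 24.1, 35.1 and 16.6 CPM with DMSO and 101, 96.5 and 101 CPM in OIS. CD68 and CSF1R, at 1.6, 1.09 and 0.702 CPM in OIS, were called higher, and they were 2 of the 3 markers tested. The part of other cell types in these rises was not tested.

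Genes of division fell. Of 65 tested genes of mitosis and the kinetochore 42 fell and 2 rose (median log2 -2.65), and 32 of 50 DNA replication genes fell and 1 rose (-0.92). MKI67 went from 9.13, 3.38 and 8.45 CPM to 1 count in each OIS library, a log2 fold change of -4.94 or below. KIF20A, a kinesin of cytokinesis, went from 11.6, 11.4 and 9.77 CPM to 0.152, 0.172 and 0.117 CPM, and CCNB2 (cyclin B2) from 8.07, 7.61 and 9.3 CPM to 0.608, 0.516 and 0.878 CPM. TK1, the thymidine kinase of S phase, went from 14.4, 20 and 15.4 CPM to 1.29, 0.229 and 0.351 CPM and MCM2, a subunit of the replicative helicase, from 30.3, 47.9 and 21.9 CPM to 9.65, 6.88 and 5.8 CPM. The groups were separate for each of these 5. CCNB1, the partner of CDK1 at mitotic entry, fell by only 0.78, a call lost without OIS replicate 2 or 3 or DMSO replicate 3 (adjusted p up to 0.074), and CCNE1 and E2F1, which open S phase, rose by 2.05 ± 0.24 and 1.11 ± 0.36; E2F1 lost its call without OIS replicate 1 or DMSO replicate 1 or 3 (adjusted p up to 0.17).

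MKI67, CCNB2 and KIF4A promoters are shown for the cell cycle homology region (CHR), the letters TTTGAA through which late cell cycle genes are repressed. Capitals mark matches on either strand in RefSeq stretches (GRCh38.p14) from 70 to 11 bases before the start, at chr10:128126434-128126493 (minus strand), chr15:59105076-59105135 (plus) and chrX:70290034-70290093 (plus).
MKI67: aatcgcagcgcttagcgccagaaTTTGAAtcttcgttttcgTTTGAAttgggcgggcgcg
CCNB2: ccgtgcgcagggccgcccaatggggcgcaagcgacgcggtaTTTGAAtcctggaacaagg
KIF4A: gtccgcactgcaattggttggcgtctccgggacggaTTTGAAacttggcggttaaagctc
Of 55 promoters of tested mitosis and kinetochore genes 22 held the motif, against 13.6% of all promoters and 8.39% of those of tested genes, and 9 of 43 DNA replication promoters held the E2F motif TTTNGCGC, against 1.54% and 2.33%.

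The inhibitors of cyclin-dependent kinases took separate courses. The wider list of arrest genes was called higher in 7 of 39 cases and lower in 8, shares near those of all genes (15.5% and 20.2%). After correction 9 were higher and 19 lower, where 23.9% and 31.5% of all genes were. The lower share was then above that of all genes. CDKN2B (p15) went from 13.3, 8.68 and 23.8 CPM to 121, 168 and 242 CPM, whereas CDKN2C (p18), CDKN1C (p57) and CDKN1B (p27) fell (log2 -3.20, -2.72 and -1.93). Further members of that list were split: GDF15, a stress cytokine, rose by 3.90 ± 0.36 and PLK3, a stress kinase, by 2.79 ± 0.32, whereas MDM2 and FAS were not called (log2 -0.66 and -1.21). Of 67 DNA repair genes 15 fell and 2 rose, a share of lower calls near the 20.2% of all genes. After correction 31 fell, a larger share than the 31.5% of all genes, and 5 rose. RAD51D, a factor of homologous recombination, fell by 3.06, and ERCC1, a nuclease subunit of excision repair, went from 104, 146 and 103 CPM to 1192, 636 and 438 CPM. In the BCL2 and cell death list 11 of 42 rose and 6 fell (26.2% and 14.3%, against 15.5% and 20.2% of all genes), and 19 and 11 after correction. Among them were the protective BCL2A1 (6.28 ± 0.63) and MCL1, which went from 257, 142 and 285 CPM to 675, 1143 and 1959 CPM, and the death-promoting BCL2L11 (BIM), which fell by 2.18. HMGA1 and HMGA2, chromatin proteins of senescence foci, rose by 2.23 ± 0.30 and 1.76 ± 0.38.

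Few genes of the early secretory route were called before correction. Of 43 ER chaperones and unfolded protein response genes 4 rose and 1 fell (median log2 0.19), and after correction 12 and 6. HSPA5 (BiP), the main ER chaperone, stood at 831, 785 and 1106 CPM against 967, 495 and 1116 CPM, and DDIT3 (CHOP) at 31.2, 24 and 44.3 CPM against 24.9, 22.2 and 25.1 CPM. ERO1A, an oxidase for disulphide bonds, rose by 1.92 ± 0.56. Of 23 coat subunits of COPI and COPII vesicles 2 rose and 3 fell, a lower share in each direction than over all genes. After correction 9 rose, a higher share than the 23.9% of all genes, and 3 fell. Of those called before correction, the COPII parts SEC23B and SEC13 rose by 1.04 ± 0.15 and 0.65 ± 0.20. The alternative COPI isoform COPG2 fell from 58.7, 72.7 and 51.3 CPM to 35.6, 29.5 and 28.5 CPM, and COPZ2, likewise an alternative isoform, fell by 1.26. The further genes called after correction are not named here. SEC13 lost its call without OIS replicate 1 or DMSO replicate 1 or 3 (adjusted p up to 0.085) and COPZ2 without OIS replicate 2 or 3 or DMSO replicate 2 (up to 0.11), and COPG2 had an adjusted p of 0.069 when only the 6 libraries were fitted. Their common counterparts COPG1 and COPZ1 were not called. Lysosomal genes were called higher in 14 of 67 cases and lower in 12, near the shares of all genes (15.5% and 20.2%). After correction 23 were higher and 22 lower, where 23.9% and 31.5% of all genes were. CTSS (cathepsin S) went from 5.8, 2.88 and 5.1 CPM to 118, 111 and 168 CPM and CTSB (cathepsin B) from 2307, 3252 and 1952 CPM to 8490, 6256 and 5546 CPM, CTSH and the fucosidase FUCA1 fell (log2 -3.04 for each), and GLB1, which encodes the beta-galactosidase of the senescence stain, stayed at 109, 149 and 72.2 CPM against 136, 110 and 111 CPM.

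The effect of 4OHT was also measured with other shRNAs, in libraries that entered the estimate of the spread used above. In ER:RAS cells carrying shRNA 1 or 2 against COPB2, a COPI subunit, 4OHT was again set against DMSO with 3 libraries each. Of the 2210 genes higher with the control shRNA, 1908 (86.3%) were called higher with shRNA 1 and 1829 (82.8%) with shRNA 2, and 248 with neither. Of the 2888 lower genes, 2561 (88.7%) and 2533 (87.7%) were called lower, and 230 with neither. These contrasts share an estimate of the spread with the control shRNA but no library. List medians were close in some cases and not in others. For clustered protocadherins they were -3.58, -3.90 and -4.04, for interferon-stimulated genes -1.74, -1.81 and -2.09 and for sterol synthesis 2.26, 2.48 and 2.29, with the control shRNA, shRNA 1 and shRNA 2 in that order. For ER chaperones and unfolded protein response genes they were 0.19, 0.59 and 0.60, with 4, 15 and 14 genes called higher, and for the WNT list -0.32, -0.69 and -0.58. Whether these medians differ was not tested.

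Bleomycin, a DNA-breaking agent given to parental IMR90 at 50 µg/ml for 24 h, brought cells to senescence without oncogenic RAS, and its response with the control shRNA (4 libraries against 4 with DMSO) was set against OIS. The difference of the responses was tested over 15299 genes and was called positive for 1246 (8.14%) and negative for 1855 (12.1%); the model and the cell line cannot be told apart. It was positive for 10 of the 21 ERK feedback genes, 15 of 23 sterol genes and 15 of 29 glycolysis genes, and negative for 27 of 34 clustered protocadherins, 14 of 37 interferon-stimulated genes, 9 of 19 elastic fibre genes and 8 of 20 HOX genes. Of 16 chemokines only CXCL12 was called different. The lack of a call does not show equal responses. CXCL5, for example, had a log2 change of 10.59 in OIS and 6.27 with bleomycin (edgeR adjusted p for the difference 0.18). SEMA7A, at a log2 change of 6.12 in OIS and 0.34 with bleomycin, TIE1 (6.23 and -0.32), ERRFI1 (3.12 and 0.15) and P4HA2 (2.35 and 0.17) differed between models (edgeR adjusted p for the difference 5.7e-14, 2.1e-09, 5.5e-08 and 1.7e-05), whereas CDKN1A (2.48 and 2.60) and LMNB1 (-2.53 and -2.49) had differences with an adjusted p of 0.99 and 0.94. Of the genes higher in OIS 930 were called higher with bleomycin and 57 lower, and of the genes lower in OIS 1184 were called lower and 134 higher.

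**Figure D5:**
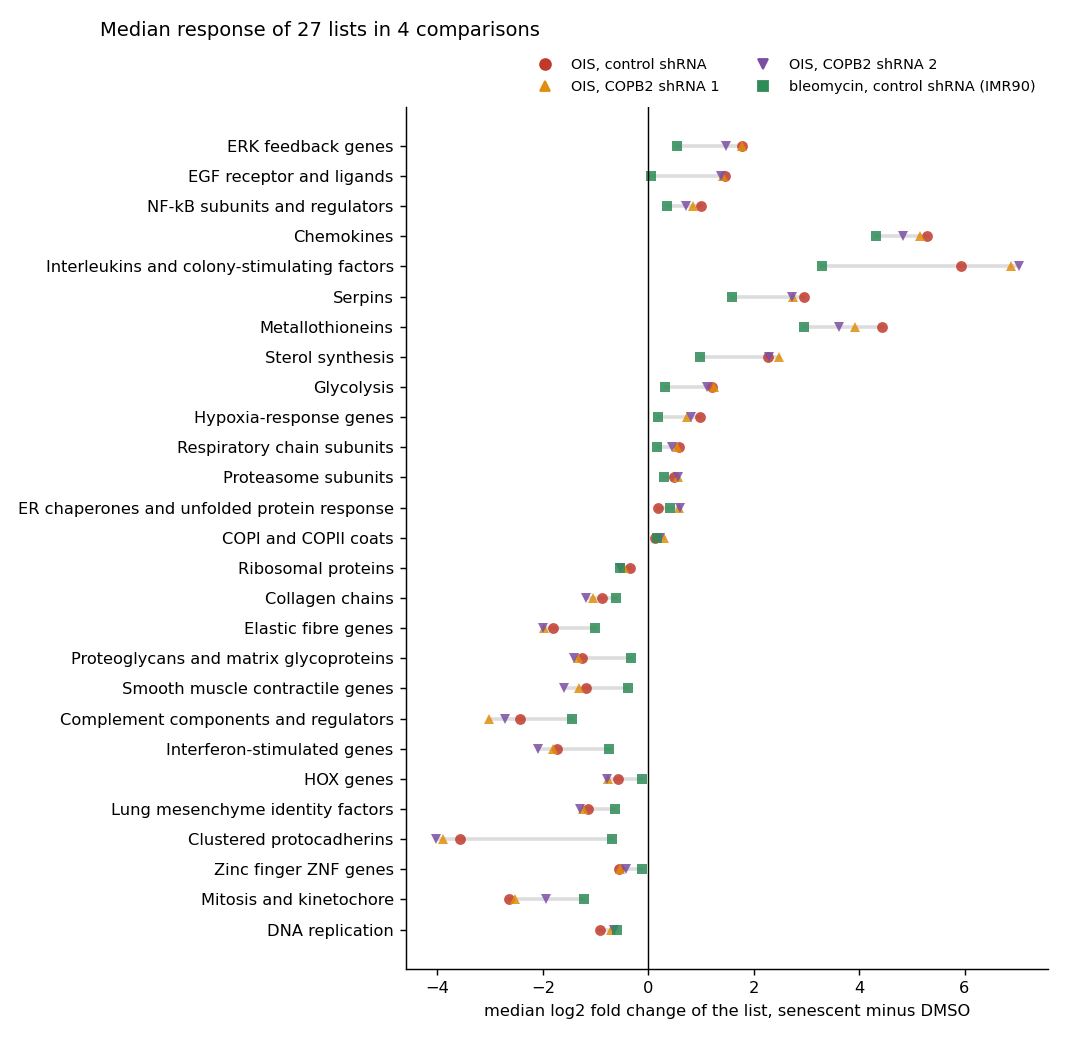
Median log2 fold change of senescent against DMSO cells over the tested genes of 27 lists, for OIS with the control shRNA (red circles), with COPB2 shRNA 1 and 2 (orange and purple triangles) and for bleomycin in parental IMR90 with the control shRNA (green squares). The 3 OIS symbols lie nearest each other in most lists, with interleukins a wider case (5.93, 6.89 and 7.04), and the green squares lie nearer 0 for clustered protocadherins (-0.70 against -3.58), sterol synthesis (0.97 against 2.26) and glycolysis (0.31 against 1.21). Genes at the floor enter with their fitted values. With bounds the interleukin median for the control shRNA was 3.92.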

How the data were processed

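Poly(A) RNA-seq read counts per gene were analysed as the authors deposited them, as raw counts in 1 table of 28266 genes, with no normalization. Per the submitters' processing notes, DRAGEN, STAR 2.7.8a, DESeq2 1.32.0 and hg38 were used; the study's methods name other tools and another build, so no gene coordinates were taken from the table. Libraries were stranded and sequenced single-end, and 6 groups of 3 IMR90 ER:RAS libraries (18 in all) shared 1 estimate of the spread.

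Genes were filtered for low counts and scaled by TMM, and OIS was compared with DMSO by edgeR's quasi-likelihood test (edgeR 4.0.16, limma 3.58.1, R 4.3.3) with Benjamini-Hochberg adjustment at 0.05. Log2 fold changes are the fitted values of edgeR's model. A prior count of 2 entered only the log2 CPM used for library trends and correlations. A gene with at most 3 counts in every library of a group is given by its bound against 3 counts per library. Floors of 3 counts cover counting error only; SD and SE include the spread between libraries. The GC and length correction used smooth offsets per library. Alternatives were DESeq2 1.42.0 (size factors, Wald test), no filter, only the 6 libraries, a replicate block, the correction, a log2 threshold of 1 and leaving out libraries. The fits were tested on simulated data.

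Genes were named by rule: in each of 52 lists and 56 families, up to 3 called genes at each end by log2 fold change provided that the group with more reads averaged 100 counts or more and that OIS and DMSO libraries were separate; the 10 largest gains and losses in CPM among called genes; the markers, HRAS and ESR1; and other list members by their role. A few genes that these rules name are not reported here. The comparison, lists and rule were chosen with earlier results of these data known. Promoters (RefSeq, GRCh38.p14; the first listed start of each gene) matched 11080 of 14297 genes tested, and 250 bases before the start were searched. Figures were drawn with matplotlib 3.10.9 from tables made with Python 3.11.15 and pandas 2.3.3.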

Additional observations from a re-analysis of the deposited data

Results flagged for a closer look

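Groups of 3 libraries were too small to test for single stray samples. The response of IMR90 ER:RAS cells to 4OHT differed from that of parental IMR90 to bleomycin in 1246 genes in the higher and 1855 genes in the lower direction (edgeR's test of the difference), among them 158 of the genes named here. The model and the cell line cannot be told apart in this difference.

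For 6 named genes both responses were called, in opposite directions. MMP14, COL6A2 and LTBP2 rose in OIS and fell with bleomycin, with differences of 2.22, 1.99 and 1.75 on the log2 scale. FUCA1, IGFBP2 and TIMP3 fell in OIS and rose with bleomycin, with differences of -3.84, -2.85 and -1.96. The call of LTBP2 in OIS was lost when OIS replicate 3, DMSO replicate 1 or DMSO replicate 3 was left out (adjusted p up to 0.13).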

How the results depend on the processing

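Of 277 genes named here 237 were called, and 218 of these kept their call and direction under every alternative, with no reversal. Many of these genes were named for large changes and separate groups, so that share is no measure of all calls. Over all genes, 1598 of the 2210 called higher and 1871 of the 2888 called lower kept their call in all 6 fits that left out 1 library. The fit to the 6 libraries alone, which has fewer samples to estimate the spread, lost 19 of the 237 calls and the GC and length correction lost 2. For OIS with the control shRNA, genes called higher and lower came to 1285 and 1626 with the 6 libraries alone, and to 3423 and 4500 after GC and length correction. Leaving out 1 library in turn gave 1752 to 2546 higher and 2100 to 2697 lower, and leaving out OIS replicate 1 and DMSO replicate 2 together, an alternative chosen after seeing the data, gave 1829 and 2371. With COPB2 shRNA 1 and 2 the correction gave 3476 and 3333 higher and 4710 and 4806 lower, with 7133 and 7025 genes called in the direction of the control shRNA, and for the difference from bleomycin 2074 higher and 3172 lower. For the same comparisons, leaving out 1 library in turn gave 1852 to 2144 and 1715 to 2203 higher, 2358 to 2788 and 2468 to 2853 lower, 3849 to 4180 and 3787 to 4052 shared, and 962 to 1369 and 1485 to 1885 for the difference from bleomycin. The cause of these shifts was not tested.

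OIS and DMSO libraries share replicate numbers. The deviations of same-numbered libraries correlated at -0.61, -0.31 and 0.59, and at -0.36, -0.05 and 0.28 after GC and length correction. With values this mixed, they do not decide whether the numbers pair the samples. With the replicate block the calls came to 3191 higher and 4083 lower (3957 and 5227 with GC and length correction), to 3342 higher with either COPB2 shRNA and to 2067 higher for the difference from bleomycin, and none of the named calls was lost under the block. OIS replicate 1 correlated most with DMSO replicate 2 (0.72), the other GC-rich library.

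Some genes that were not called changed sign, none with a call. DESeq2 size factors gave 0.089 for BGN, 0.11 for HOXB8, 0.052 for HSPA5, 0.038 for PFKM, 0.12 for PMVK. No filter on low counts gave 0.036 for BGN, 0.038 for HOXB8, 0.032 for PMVK. DESeq2's Wald test gave 0.089 for BGN, 0.11 for HOXB8, 0.052 for HSPA5, 0.038 for PFKM, 0.12 for PMVK. The replicate block gave 0.064 for BGN. GC and length correction gave -0.11 for HRAS, 0.028 for HSPA5, -0.21 for TM7SF2. That correction with the replicate block gave -0.12 for CCL2, -0.15 for HRAS, 0.0056 for HSPA5, -0.22 for TM7SF2. Both GC-rich libraries left out gave 0.34 for BGN, -0.16 for CCL2, 0.098 for EGFR, -0.010 for FOXF1, -0.0041 for HOXB5, -0.18 for LDHB, 0.045 for PFKM, -0.031 for SLC2A1. Leaving out 1 library in turn gave -0.21 to 0.43 for BGN, -0.15 to 0.98 for CCL2, -0.0027 to 0.46 for COPG1, -0.84 to 0.17 for EGFR, -0.077 to 0.22 for FOXF1, -0.073 to 0.46 for GLB1, -0.21 to 0.89 for HOXB5, -0.39 to 0.33 for HOXB8, -0.024 to 0.44 for HRAS, -0.24 to 0.25 for HSPA5, -0.61 to 0.093 for JUND, -0.17 to 0.57 for LDHB, -0.48 to 0.065 for LSS, -0.21 to 0.22 for PFKM, -0.90 to 0.43 for PMVK, -0.17 to 0.37 for SLC2A1, -0.20 to 0.37 for TM7SF2. Depth limits the scarcest genes: 3 counts correspond to 0.142 to 0.228 CPM. Metalloproteinases and collagen maturation enzymes had medians whose sign changed between TMM, size factors and GC correction.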

Other observations

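Some further groups were counted. All 4 tested aquaporins, channels for water and glycerol, were called lower, with AQP3 at 23.6, 34.1 and 16.9 CPM with DMSO and 1.14, 1.43 and 1.29 CPM in OIS, and AQP1 fell by 4.39 on the log2 scale. Of 18 clock genes 6 rose and 4 fell (33.33% and 22.22%, against 15.5% and 20.2% of all genes). BHLHE40, a repressor of the clock, went from 20.5, 18.1 and 16.7 CPM to 180, 180 and 202 CPM and PER1 rose by 1.70 ± 0.22, whereas PER3 and DBP, an output gene, fell by 2.47 and 3.66. In the IGF list 7 of 16 rose and 5 fell (43.75% and 31.25%, against 15.5% and 20.2% of all genes). The binding protein IGFBP3 stood at 34.3, 29.5 and 28.3 CPM against 230, 162 and 169 CPM and IGFBP2 at 513, 635 and 642 CPM against 280, 109 and 82 CPM.

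Of 32 heat shock genes 8 fell and 1 rose (25% and 3.1%, against 20.2% and 15.5% of all genes). After GC and length correction 12 fell and 4 rose. HSPA2 went from 26.6, 38.2 and 24 CPM to 2.28, 2.41 and 2.34 CPM, while HSPA8, the constitutive chaperone, was not called. The redox defence list was called higher in 8 of 43 cases and lower in 8, near the shares of all genes (15.5% and 20.2%). After correction 15 of the list were higher and 13 lower, where 23.9% and 31.5% of all genes were. Among its falls, SOD3, the extracellular superoxide dismutase, went from 63.6, 90.7 and 65.8 CPM to 0.456, 0.974 and 0.937 CPM and GPX3, the plasma glutathione peroxidase, fell by 5.20. NQO1, a target of NRF2, rose by 1.19 ± 0.27. Among potassium channels 15 of 42 rose and 15 fell (35.71% each, against 15.5% and 20.2% of all genes). KCNG1 stood at 7.34, 9.75 and 7.74 CPM against 474, 302 and 257 CPM and KCNK2 at 7.97, 7.95 and 7.46 CPM against 0.532, 0.115 and 0.585 CPM. In the Notch list the target HEY1 went from 0.29, 0.846 and 0.614 CPM to 36.4, 29.2 and 36.7 CPM. The host transcript MIR31HG went from 9.04, 12.3 and 10.8 CPM to 113, 110 and 108 CPM.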
